A study of Caenorhabditis elegans with 2 samples.

Results

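The piRNA-rich domains of Caenorhabditis elegans chromosome IV were described from AMA-1 ChIP-seq peaks. A peak was a member when its summit lay in the left domain (chrIV:4500001-7000001) or in the right domain (chrIV:13500001-17200001) on build ce11. The rule used position alone and found 1227 of the 30000 peaks of the pooled list, 655 in the left domain and 572 in the right one. The rest of chromosome IV held 3861 peaks. The lists give no read counts, so the depth behind a peak is unknown. All samples were whole wild-type worms of strain N2 at the L4 stage, the last larval stage, with males and females pooled, and the labels name no allele or treatment. They were 2 biological replicates of 1 group, in which chromatin bound by AMA-1 was precipitated. AMA-1 is the largest subunit of RNA polymerase II. Germ line and body tissues were therefore measured together, and the share of signal from each cannot be told apart.

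Piwi-interacting RNAs (piRNAs) of C. elegans, also called 21U-RNAs, guide the Piwi protein PRG-1 to foreign and repeated sequences in the germ line. Each is cut from its own short capped precursor, which RNA polymerase II transcribes from a very small gene. Many of these genes lie in the 2 domains studied here, between and inside protein-coding genes, and many carry a conserved upstream motif with the core CTGTTTCA. In the annotation used here the domains held 14204 of the 15363 piRNA genes, 2816 in the left domain and 11388 in the right one, each annotated as 21 bases. The same 6.2 Mb held 941 protein-coding genes.

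The sequences below show what the domains contain and where the polymerase peaks fell among it. The letters were read from the RefSeq copy of the WBcel235 genome, which is the same assembly as ce11. First are the 10 piRNA genes under the strongest peaks that lay within 100 bp of a piRNA start and over 1000 bp from every protein-coding start and end. Each line runs 5′ to 3′ over the bases just before the gene and then its 21 bases. Capitals mark the 21 bases and, upstream of them, the core motif CTGTTTCA or, where only that was found, its short form GTTTC, searched from 70 to 20 bases before the start on the gene's strand.
21ur-7377 (chrIV:5265097-5265177, minus strand): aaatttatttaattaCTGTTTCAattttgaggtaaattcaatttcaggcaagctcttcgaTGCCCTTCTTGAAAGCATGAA
21ur-6997 (chrIV:16173162-16173242, minus strand): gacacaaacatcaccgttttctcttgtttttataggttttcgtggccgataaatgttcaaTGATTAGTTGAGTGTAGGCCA
21ur-8767 (chrIV:15697184-15697264, minus strand): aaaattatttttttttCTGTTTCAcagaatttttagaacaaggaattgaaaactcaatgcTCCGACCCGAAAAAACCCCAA
21ur-5229 (chrIV:5967029-5967109, plus strand): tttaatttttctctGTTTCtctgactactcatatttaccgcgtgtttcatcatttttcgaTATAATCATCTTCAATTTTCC
21ur-15028 (chrIV:5603704-5603784, minus strand): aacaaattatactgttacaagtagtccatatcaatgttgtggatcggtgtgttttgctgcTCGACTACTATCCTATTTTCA
21ur-7346 (chrIV:5340695-5340775, plus strand): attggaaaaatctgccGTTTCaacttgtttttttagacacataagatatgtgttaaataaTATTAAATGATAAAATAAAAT
21ur-12303 (chrIV:5132233-5132313, minus strand): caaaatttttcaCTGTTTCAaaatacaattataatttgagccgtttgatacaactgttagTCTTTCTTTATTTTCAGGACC
21ur-14069 (chrIV:13909316-13909396, minus strand): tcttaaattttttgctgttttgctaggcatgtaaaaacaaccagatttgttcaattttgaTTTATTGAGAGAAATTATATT
21ur-3503 (chrIV:14733174-14733254, plus strand): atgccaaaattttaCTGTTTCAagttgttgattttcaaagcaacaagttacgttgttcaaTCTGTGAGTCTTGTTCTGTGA
21ur-9974 (chrIV:14737704-14737784, plus strand): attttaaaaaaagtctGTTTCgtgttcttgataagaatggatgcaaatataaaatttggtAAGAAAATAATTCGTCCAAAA

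Of these 10 genes, 4 had the core, 3 had the short form alone and 3 had neither in the searched stretch. Over all 14204 piRNA genes of the domains, 4944 (34.8%) had the core, 5731 (40.3%) had the short form alone and 3529 (24.8%) had neither. The core began a median of 46 bases before the gene start (quartiles 45 and 47). On the rest of chromosome IV 31.6% of the 510 piRNA genes had it. In 300-bp windows laid end to end, the core stood on either strand in 20.9% of the windows of the domains, against 2.29% of those on the rest of the chromosome.

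The sequence under 3 of the peaks follows. The strongest peak of the domains covered mir-52, a microRNA gene, and the 300 bases around its summit are printed with the 2 annotated mature microRNAs in capitals. The 200 bases around the summits of the strongest 2 of the 10 peaks just described follow, with the piRNA in capitals; both piRNA genes lie on the minus strand, so their letters read backwards and complementary to the lines above.
mir-52 peak (chrIV:14033838-14034137, plus strand): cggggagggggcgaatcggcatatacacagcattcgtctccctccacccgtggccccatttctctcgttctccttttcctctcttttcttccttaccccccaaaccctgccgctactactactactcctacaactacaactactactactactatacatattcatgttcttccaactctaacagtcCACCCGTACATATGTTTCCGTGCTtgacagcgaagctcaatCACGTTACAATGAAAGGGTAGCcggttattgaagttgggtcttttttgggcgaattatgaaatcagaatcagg
peak at 21ur-7377 (chrIV:5264936-5265135, plus strand): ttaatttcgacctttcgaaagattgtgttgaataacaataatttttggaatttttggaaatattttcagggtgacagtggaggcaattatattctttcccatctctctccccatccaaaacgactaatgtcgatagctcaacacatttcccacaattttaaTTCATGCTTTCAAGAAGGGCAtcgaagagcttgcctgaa
peak at 21ur-6997 (chrIV:16173091-16173290, plus strand): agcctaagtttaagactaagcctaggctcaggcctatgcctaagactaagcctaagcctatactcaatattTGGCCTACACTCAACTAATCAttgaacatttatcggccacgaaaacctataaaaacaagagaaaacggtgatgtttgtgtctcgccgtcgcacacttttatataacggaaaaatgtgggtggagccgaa
The hexamer GCCTAA or its complement occurred 3 times around the summit at 21ur-6997 and in neither of the other 2 windows. The mature mir-52 RNAs, with the seed (bases 2 to 8) in capitals, were as follows.
mir-52, first arm: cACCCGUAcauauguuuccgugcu
mir-52, second arm: cACGUUACaaugaaaggguagc

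Peaks were sparser in the domains than elsewhere on the chromosome. The pooled list had 197.9 peaks per Mb in the domains, 262.0 in the left one and 154.6 in the right one, against 341.9 per Mb on the rest of chromosome IV. In the replicates' own lists the domains had 186.8 and 211.3 peaks per Mb (mean 199.0 ± 17.3, SD, n = 2), against 324.3 and 357.1 on the rest of the chromosome (340.7 ± 23.2, SD, n = 2). The values of the 2 regions did not overlap, and the gap was larger than the SD between replicates. Within each replicate the domains minus the rest came to −137.6 and −145.8 peaks per Mb; an exact two-sided sign-flip permutation test of 2 such differences gives p = 0.5, the smallest it can give. Protein-coding genes were sparser in the same sense, with 151.8 per Mb in the domains and 207.2 per Mb on the rest of chromosome IV. The piRNA genes stood at 2291 and 45.2 per Mb. The other chromosomes had 300.9 pooled peaks per Mb, with 304.2 in replicate 1 and 297.9 in replicate 2. The rest of chromosome IV was thus itself denser than they were, and the domains fell short of both.

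The signals of single peaks in the domains spanned much the same range as elsewhere. The signal, a score the authors' caller gave each peak and used here only within 1 list, had a median of 16.2 in the domains (quartiles 11.4 and 25.9) and 15.7 on the rest of the chromosome (11.3 and 24.9). The set kept by the irreproducible discovery rate (IDR) analysis, which scores agreement between replicates, held 104 domain peaks (16.8 per Mb) and 264 on the rest of the chromosome (23.4 per Mb). That is 8.48% of the domain peaks (exact 95% binomial interval 6.98 to 10.2%) and 6.84% of the others, beside 6.94% of all pooled peaks. In the pooled list the IDR set was the 2082 peaks of highest signal, and among domain peaks the weakest inside it had a signal of 47.5 and the strongest outside it 46.9. Membership therefore stands here for a high signal. Near the limits of the domains, the first peak inside and the first outside had signals of 10.4 and 8.32 at the start of the left domain, 8.90 and 18.9 at its end, 17.3 and 19.6 at the start of the right domain, and 11.9 and 11.0 at its end.

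How many of these peaks the 2 replicates shared depended on the distance allowed. A summit in both replicate lists within 100 bp was found for 412 of the 1227 members (33.6%, interval 30.9 to 36.3%), against 31.9% on the rest of the chromosome and 31.3% of all pooled peaks. A further 681 were matched in 1 replicate and 134 in neither. When any overlap of peak intervals counted as a match, 56.3% were matched in both. Among the 104 members in the IDR set, 82 (78.8%) were matched in both, 15 in replicate 1 alone, 4 in replicate 2 alone and 3 in neither. Where both matched, the rank percentiles of the 2 replicates differed by a median of 6.42 points for the 82 IDR members and by 22.2 points for the other 330; the IDR members all have high pooled signals, so their percentiles lie mostly near the top of both lists. Spearman's correlation of the percentiles over the 412 was 0.455, a description over peaks that share the same 2 libraries.

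**Figure D1:**
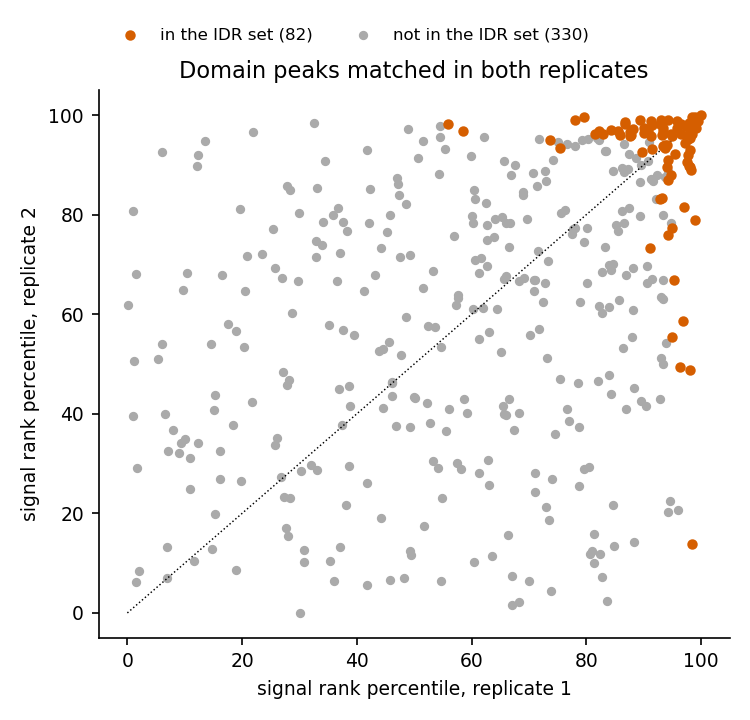
Signal rank percentile of each domain peak matched in both replicates, in replicate 1 (x axis) and replicate 2 (y axis), with 100 as the strongest. The 82 peaks of the IDR set (orange) crowd the upper right corner, and the other 330 (grey) spread over the whole square; the dotted line marks equal percentiles.

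The peak over mir-52 (chrIV:14033772-14034168), a gene of the mir-51 family of microRNAs, had a signal of 407.6 in the pooled list, 325.3 in replicate 1 and 138.0 in replicate 2. It ranked 12 of 30000 in the pooled list, 7 in replicate 1 and 20 in replicate 2, and every other domain peak was under 130 in signal. Its summit lay 20 bp before the annotated precursor and 1213 bp from the nearest piRNA gene, 21ur-2841. The second peak, 376 bp from the start of ccar-1, had signals of 129.6 (pooled), 65.0 (replicate 1) and 66.8 (replicate 2). The third lay 174 bp from the start of Y17G9B.5 with 127.2, 82.2 and 44.7, and 943 bp from the end of rpl-20, which encodes a protein of the large ribosomal subunit.

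Of the 20 strongest members, 10 lay within 500 bp of the start of a protein-coding gene as their nearest start. A peak of signal 100.4 lay 26 bp from the start of tctn-1 (tectonic, a protein of the ciliary transition zone) and 89 bp from the end of cyc-2.1 (cytochrome c), which held another of 84.4 in an intron. A peak of 106.7 at the non-coding gene LLC1.120 lay 250 bp from the start of dld-1, a subunit of mitochondrial dehydrogenase complexes. The start of mrps-21, a mitochondrial ribosomal protein, had 84.2, that of elo-6, a fatty acid elongase, 78.3, and that of cyn-13, a cyclophilin, 78.3. The start of tlp-1, a zinc-finger transcription factor, had 81.3 and that of sqd-1, an RNA-binding protein, 92.0. Starts of C17H12.2 (110.7) and Y116A8C.43 (95.0, with the end of snr-1, a core spliceosomal Sm protein, 27 bp away) and the snoRNA genes T08B6.64 (114.2) and Y73B6A.14 (85.2) followed. Others lay in coding exons of F28E10.4 (100.3, 111 bp from its end) and ZK180.5 (84.4). The rest lay in introns of atln-2 (78.0, with the end of dpy-4 216 bp away) and fkh-7 (77.9), and in no gene (77.5).

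Of these 20 peaks, none lay within 100 bp of a piRNA start, where 146 of all 1227 members (11.9%) did. With only 20 peaks, this says little about strong peaks as a group. The edge of the left domain (chrIV:4500001-4800000) was nearly free of piRNA genes, with 0, 1 and 8 starts in its bins of 100 kb. The peaks at Y17G9B.5, tctn-1 and mrps-21 and those in cyc-2.1, F28E10.4 and ZK180.5 lay there. Their nearest piRNA starts were 17658 to 78004 bp away, so these peaks could not have been near one. The nearest were those in atln-2, 183 bp from 21ur-7637, at tlp-1, 328 bp from 21ur-14590, in fkh-7, 366 bp from 21ur-6602, and at elo-6, 433 bp from 21ur-11141. Replicates disagreed at some. The peaks in F28E10.4 and ZK180.5 had signals of 91.5 and 79.5 in replicate 1, while the nearest replicate 2 summits were 1166 and 2124 bp away. The peak in atln-2 had its nearest replicate 1 summit 155 bp away, with a signal of 71.1 (rank 245). Its nearest replicate 2 summit was 10848 bp away. The snoRNA peak at Y73B6A.14 went the other way, with 18.7 in replicate 1 (rank 6107) and 64.8 in replicate 2 (rank 147). Among IDR members matched in both, the widest gaps in rank were at another peak in fkh-7 (signal 54.2 in replicate 1 and 4.198 in replicate 2), at dmd-6 (51.1 and 7.36), rad-54.B (35.6 and 8.22) and ivd-1 (39.5 and 7.44), and at a peak 814 bp from the start of gln-3 (11.7 and 38.3). Replicate 1 was the higher one in 4 of these 5, while over all 82 it had the higher percentile in 36 and replicate 2 in 46.

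Pooled summits were less frequent near piRNA genes than the piRNA genes' own cover of the domains. Of the 1227 members, 442 (36.02%, interval 33.3 to 38.8%) lay within 500 bp of a piRNA start, while 61.9% of the bases of the domains did. The share was 41.7% in replicate 1 and 30.2% in replicate 2, and 28.8% in the IDR set, all below the share of bases. Within 100 bp it was 11.9% of members against 29.8% of bases. The left domain had 33.7% of its summits in 47.4% of its bases, and the right one 38.6% in 71.6%. With the limits of the domains drawn 0.25 Mb inward, 43.2% of the summits lay in 67.5% of the bases. As a density, bases within 500 bp of a piRNA start had 115.2 pooled peaks per Mb (replicates 125.9 and 103.0), and the other bases of the domains had 332.1 (replicates 285.6 and 387.1), a value close to the 341.9 of the rest of the chromosome. For the IDR set these were 7.82 and 31.3 per Mb over all bases, but 5.67 and 7.58 per Mb (14 and 9 peaks) over bases farther than 1000 bp from protein-coding starts and ends.

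The density fell step by step with the number of piRNA starts within 5 kb on either side. Bases with none had 519.3 pooled peaks per Mb, those with 1 to 9 had 220.5, 10 to 29 had 143.1, 30 to 49 had 123.4 and 50 to 79 had 76.8. Both replicates had the same order, from 435.7 to 69.5 per Mb in replicate 1 and from 592.5 to 69.5 in replicate 2. The IDR set had 53.4, 18.9, 10.2, 7.57 and 7.31 per Mb along the same classes. Protein-coding starts thinned out as well, with 194.0, 243.0, 165.0, 88.5 and 51.2 per Mb, and the GC content was 36.5% in the first class and 29.03% in the last.

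**Figure D2:**
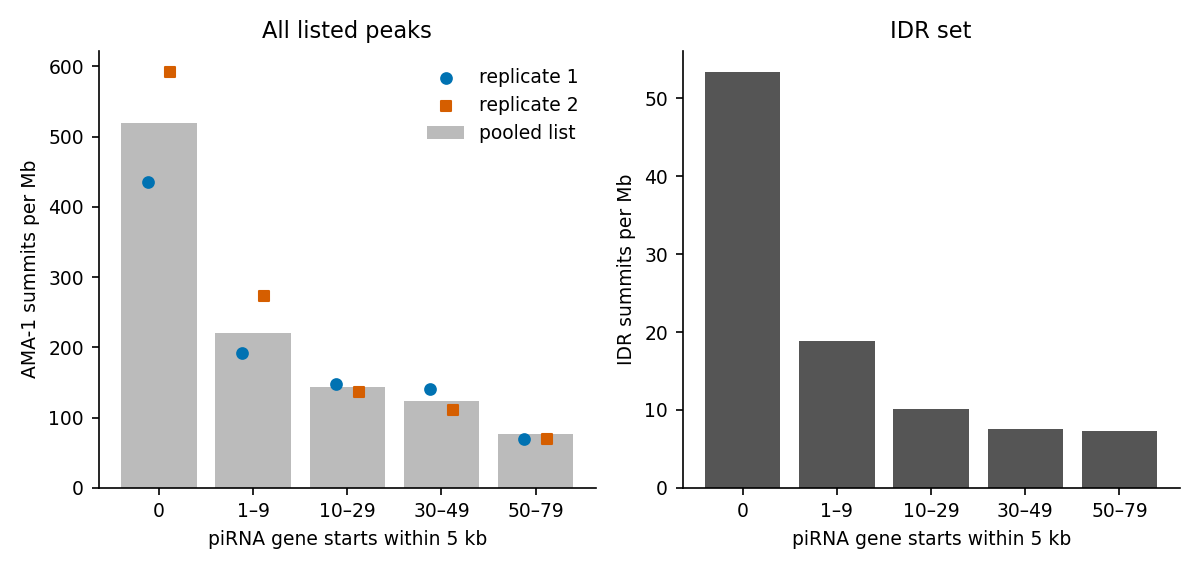
Summits per Mb of the domains (y axis) in bases grouped by the number of piRNA gene starts within 5 kb (x axis), for all listed peaks (left panel: bars, pooled list; points, each replicate) and the IDR set (right panel). The pooled density is 519.3 per Mb where there is no piRNA start and 76.8 where there are 50 to 79.

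The left domain held an exception. Its bases with 30 to 49 piRNA starts within 5 kb had 410.7 peaks per Mb, in 0.131 Mb with 54 peaks, against 99.6 in the right domain. Of those 54 peaks, 22 lay in fkh-7, a forkhead transcription factor gene, and without that gene the value was 272.9. Farther than 1000 bp from every protein-coding start and end, the left domain had 238.0 peaks per Mb near piRNA starts (within 500 bp) and 230.6 away from them. The replicates disagreed on that pair, with 269.9 and 235.8 in replicate 1 and 184.3 and 246.2 in replicate 2. Without fkh-7 it was 195.2 and 230.8. The IDR set had 13.1 and 6.93 per Mb on the same left bases, from 9 and 4 peaks, higher near piRNA starts. In the right domain the same pair was 83.7 and 281.6, with replicates at 87.7 and 73.6 near and 237.4 and 314.4 away.

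Base composition moved with this result. Bases within 500 bp of a piRNA start were 30.8% GC and the other bases of the domains 36.5%, while 300-bp windows at summits averaged 37.4 ± 6.44% (SD, n = 1227) in the domains and 37.7 ± 5.97% (SD, n = 3861) on the rest of the chromosome. Windows were therefore also compared within classes of GC content. Over both domains the pooled share was lower near piRNA starts in each of the 4 classes, with intervals apart in 3. The intervals count neighbouring windows of the same 2 libraries as if separate, so they do not measure the spread between replicates. Under 30% GC, 1.54% of windows near a piRNA start held a pooled summit (interval 1.25 to 1.87%), against 4.47% of the others (3.45 to 5.68%). From 30 to 35% GC these were 3.38% (2.82 to 4.03%) and 8.08% (6.91 to 9.38%), and from 35 to 40% GC 5.97% (4.93 to 7.17%) and 11.7% (10.3 to 13.2%). At 40% GC and over, 10.3% (8.49 to 12.5%) and 12.2% (10.9 to 13.51%) had overlapping intervals. Replicate 1 had 10.7% and 10.1% there and replicate 2 had 8.99% and 13.6%. In the left domain alone the intervals were apart only from 30 to 35% GC, at 4.89% (3.81 to 6.17%) near piRNA starts and 8.36% (6.84 to 10.1%) away from them. Under 30% GC they overlapped there, at 2.67 and 3.87%, with replicate 1 at 4.03 and 3.87%. From 35 to 40% GC they overlapped too, at 9.12 and 12.8%, and at 40% GC and over the order was the other way, at 13.2 and 11.7%, with overlapping intervals. How many reads can be placed uniquely in these windows was not tested. The GC classes were chosen after the other values had been seen.

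**Figure D3:**
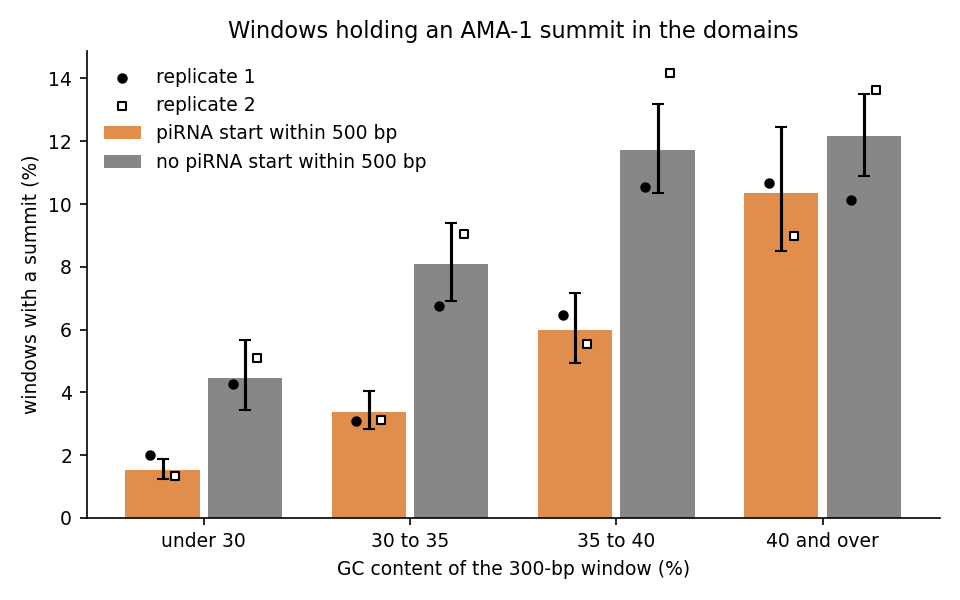
Share of 300-bp windows of the domains that hold an AMA-1 summit (y axis, percent), by GC content (x axis) and by whether a piRNA start lies within 500 bp of the window's centre (orange) or not (grey). Bars and error bars are the pooled list with its exact 95% binomial interval and points are the replicates; the intervals are apart below 40% GC and overlap at 40% and over.

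Around piRNA starts the summits thinned towards the start itself. The pooled list had 6.97 summits per 1000 piRNA genes in the 100 bp just before the start and 7.39 in the first 100 bp of and after it, against a mean of 11.3 per 100 bp at 1000 to 2000 bp on either side. The bin before the start was the lowest of all in both replicates, at 7.67 and 5.14. Neighbouring piRNA genes share summits, so these are not independent counts. Protein-coding genes of the same domains had the opposite profile, with 61.6 summits per 1000 genes in the first 100 bp and a mean of 25.3 at 1000 to 2000 bp. On the rest of chromosome IV those were 88.0 and 35.4. In the pooled list the mean over the inner 500 bp was 0.857 of the outer mean for piRNA genes and 1.27 of it for protein-coding genes of the domains. The replicates gave 0.917 and 0.890 for piRNA genes, a shallower dip than in the pooled list, and 1.41 and 1.26 for protein-coding genes.

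**Figure D4:**
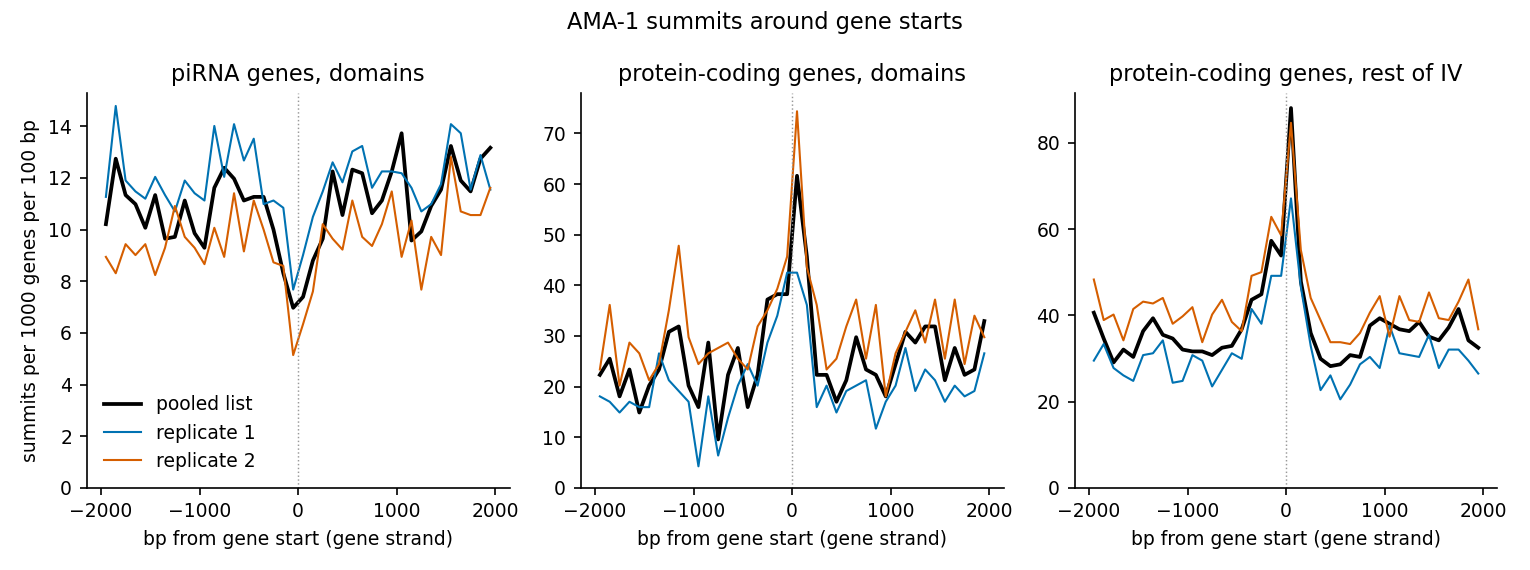
Summits per 1000 genes per 100 bp (y axis) by distance from the gene start (x axis, bp, positive in the direction of the gene) for piRNA genes of the domains, protein-coding genes of the domains and protein-coding genes of the rest of chromosome IV. The pooled list (black) and each replicate (colours) dip at piRNA starts, to 6.97 in the pooled list, and peak at protein-coding starts, at 61.6 and 88.0; the y axes differ in scale.

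Counted by gene, 1107 of the 14204 piRNA genes of the domains (7.79%, interval 7.36 to 8.25%) had a pooled summit within 500 bp, beside 8.44% of all piRNA genes. The replicates gave 8.65% and 7.11% (mean 7.88 ± 1.08, SD, n = 2). The left domain had 14.8% and the right one 6.06%, against 12.4% of the 510 piRNA genes on the rest of chromosome IV and 19.6% of the 649 on other chromosomes. In the IDR set 68 domain piRNA genes (0.479%) had a summit, beside 0.527% of all, most of which are the domain genes themselves. It was 0.588% on the rest of chromosome IV and 1.54% on other chromosomes, from 3 and 10 genes. Several genes can share 1 summit.

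The shares differed more by where the piRNA gene lay than by its motif. Of the 4848 piRNA genes in introns of other genes, 14.8% had a pooled summit within 500 bp (replicates 16.2 and 12.3%), and of the 8930 outside genes 3.85% did (4.40 and 3.96%). The difference held within each domain, at 18.7% in introns and 10.4% outside genes in the left one, and 13.3% and 2.73% in the right one. Leaving out fkh-7 brought the intron share of the left domain to 14.6%. The 426 piRNA genes in exons had 10.6%. Summits as a whole differed in the same sense, counted over 500 bp from protein-coding starts and ends. Gene bodies there held 51.0% of the members in 35.2% of the domains' bases, and bases outside genes 14.0% in 40.2%. Whether the difference among piRNA genes goes beyond this was not tested. piRNA genes on the same strand as their host had 13.7% and those on the opposite strand 15.2%. By motif the shares were 9.08% with the core, 7.57% with the short form alone and 6.35% with neither. On the rest of chromosome IV the order was another, at 10.6%, 10.1% and 16.1% of 161, 169 and 180 piRNA genes, with overlapping intervals. Of the 1223 piRNA genes with a protein-coding start within 500 bp, 8.91% had a summit, against 7.69% of the other 12981.

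Strong peaks were rare far from protein-coding starts and ends, at piRNA starts or not. Of the 618 members over 1000 bp from all of these, 23 (3.72%) were in the IDR set. There were 108 members within 100 bp of a piRNA start and over 1000 bp from every protein-coding start and end, 69 of them with the piRNA gene in an intron, 25 outside genes and 14 in exons. Their median signal was 11.9, 17 (15.7%) were matched in both replicates and 2 (1.85%) were in the IDR set. The 510 members equally far from protein-coding starts and ends, with no piRNA start within 100 bp, had a median signal of 15.3, with 172 (33.7%) matched in both and 21 (4.12%) in the IDR set. Those of them with no piRNA start within 500 bp numbered 305, with a median signal of 14.8. Of the 305, 100 (32.8%) were matched in both and 9 (2.95%) were in the IDR set. The 2 IDR peaks among the 108 are the ones printed above. The peak 81 bp downstream of the start of 21ur-7377 had a signal of 55.2, and the nearest summits were 2970 bp away in replicate 1 and 101 bp away in replicate 2; it also lay 52 bp from the start of F36H12.65, an annotated non-coding RNA gene. The peak 9 bp upstream of the start of 21ur-6997 had a signal of 54.6, and the nearest summits were 120 bp away in replicate 1 (signal 21.4) and 103 bp away in replicate 2 (5.17). The third, 76 bp downstream of the start of 21ur-8767 in an intron of Y105C5A.15, had 42.5, with replicate signals of 34.3 and 4.83. The fourth, near 21ur-5229 with 34.9, lay 3 bp from the start of a tRNA gene, a class transcribed by RNA polymerase III. The other 6, near 21ur-15028, 21ur-7346, 21ur-12303, 21ur-14069, 21ur-3503 and 21ur-9974, had 25.8 to 29.1, all inside protein-coding genes. Most of the 6 had no summit within 100 bp in 1 of the replicates or a low rank in it. The nearest replicate 2 summits were 31668 bp away at 21ur-3503, 27064 bp at 21ur-9974 and 209 bp at 21ur-12303, and the nearest replicate 1 summit was 238 bp away at 21ur-14069. At 21ur-15028 the signals were 24.6 in replicate 1 (rank 3502) and 4.21 in replicate 2 (rank 25744). At 21ur-7346 they were 21.2 (rank 4801) and 9.19 (rank 11551).

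Protein-coding genes of the domains differed by their piRNA neighbours. A pooled summit lay within 500 bp of the start of 230 of 941 (24.4%, interval 21.7 to 27.3%), against 34.5% of the 2340 on the rest of chromosome IV and 30.7% of all protein-coding genes. Of the 458 with a piRNA start within 500 bp of their own start, 46 (10.04%) had one, and the count was also 46 in each replicate. Of the 483 without a piRNA start that close, 184 (38.1%) had one, with 34.0% and 42.7% in the replicates. In the IDR set these were 1.75% and 10.1%, where 5.57% of all protein-coding genes were called; over all genes of the domains it was 6.06%, against 6.62% on the rest of the chromosome. By the number of piRNA genes inside the gene, 18.1% of the 138 genes with 10 or more had a summit at the start, 8.91% of the 303 with 1 to 9, and 35.6% of the 500 with none. These are counts of single genes in 2 libraries, and gene length, activity and base composition were not matched.

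As shares of summits, the kinds of sites were close to those elsewhere, but the domains have other shares of bases in each. Summits within 500 bp of a protein-coding start made up 22.6% of the members (20.5 and 24.4% in the replicates), against 25.3% on the rest of chromosome IV. Summits at gene ends made up 12.4 and 14.8%, in gene bodies 51.0 and 49.8%, and outside these 14.02 and 10.2%. The start class covered 14.4% of the bases of the domains and 19.4% of those on the rest of the chromosome, gene bodies 35.2 and 45.6%, and the bases outside 40.2 and 22.9%. In the IDR set 50 of the 104 domain peaks (48.1%) and 132 of the 264 others were at starts. By annotated part, 451 members lay in introns, 357 in coding exons, 56 in 3′ UTRs, 31 in 5′ UTRs, 20 in other exons and 312 outside genes.

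Some genes held many peaks. The gene fkh-7 (25695 bp) held 37 pooled summits, 6 of them in the IDR set, and 38 and 32 in the replicates, together with 78 piRNA genes. Y105C5A.15 held 23 summits and 118 piRNA genes, soc-2, a leucine-rich repeat protein of Ras signalling, 17 and 52, and eps-8, a regulator of actin, 15 and 100. The gene unc-44, an ankyrin, held 17 summits and 20 piRNA genes, and nhr-46, a nuclear hormone receptor, 13 and 17. Shorter genes were among the fullest too: dmd-6, a DM-domain transcription factor gene of 7361 bp, held 13 summits and 12 piRNA genes. Y41E3.7 and hrpu-1, an hnRNP U homologue, each held 13 summits and no piRNA gene. The 10 genes with the most member summits held 177 members (14.4%) in 0.191 Mb of the domains. Other genes equally full of piRNA genes had next to none: jac-1, a catenin, had 142 piRNA genes and 1 pooled summit, and Y64G10A.7, egl-23 (a potassium channel subunit), unc-5 (a netrin receptor) and sorb-1 had 112, 106, 97 and 92 piRNA genes and no pooled summit. In some genes nearly all peaks came from replicate 1. Y57G11C.42 held 18 summits in replicate 1 and none in replicate 2, C06E7.4 held 15 and 1, and Y37A1A.4 held 12 and none. These genes were named after their counts had been seen.

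Stretches of 50 kb or more with no pooled summit numbered 32, 10 in the left domain and 22 in the right one. Together they spanned 3.08 Mb, 49.7% of the domains, and held 8566 piRNA genes (60.3%) and 442 protein-coding genes (47.0%). On the rest of chromosome IV 20 such stretches took up 12.5% of the length. The longest (chrIV:16178629-16398440) ran over 219.8 kb with 536 piRNA and 34 protein-coding genes, and held 2 summits in replicate 1 and 4 in replicate 2. The second (chrIV:4880720-5081196) ran over 200.5 kb in the left domain with 254 piRNA and 51 protein-coding genes, and 3 and 4 summits. In bins of 100 kb the pooled count ran over 0 to 51 with a median of 17, and 3 of the 62 bins had none. Spearman's correlation of piRNA genes with pooled summits over bins was −0.394 over the domains, −0.072 over the 25 left bins and −0.251 over the 37 right ones, a description over neighbouring bins of the same libraries. Over the left bins it was 0.046 in replicate 1 and −0.223 in replicate 2, so its sign differed between replicates there. The values within each domain were closer to 0 than the one over both.

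**Figure D5:**
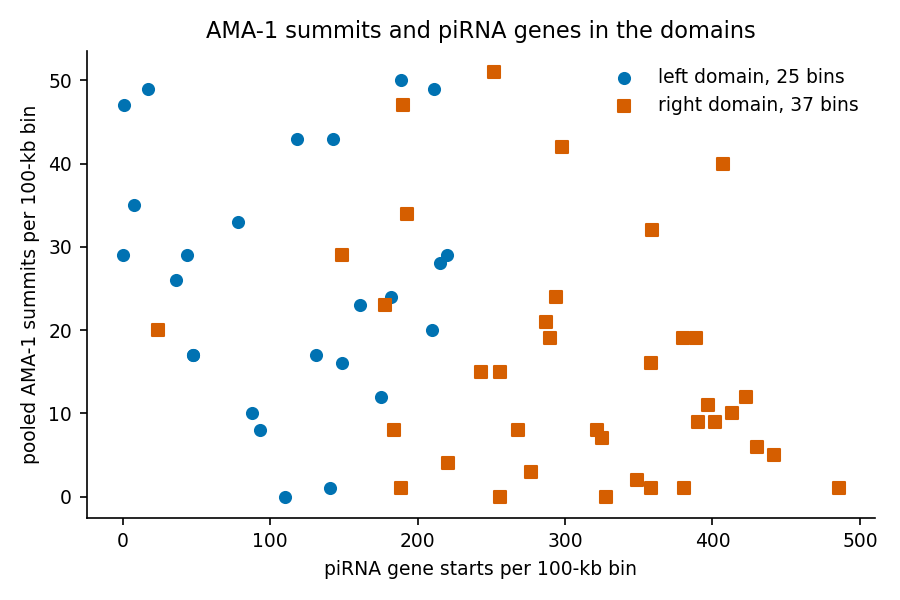
Pooled AMA-1 summits (y axis) and piRNA gene starts (x axis) in each 100-kb bin of the left (blue circles) and right (orange squares) domain. Bins of the right domain hold more piRNA genes and a median of 11 summits, against 26 in the left domain, and within either domain the points scatter widely.

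The genes that make and use piRNAs were looked up last. Of a list of 23, 22 were matched to the annotation, prg-2 through the RefSeq gene table, and a pooled summit lay within 500 bp of the start of 8 of them (36.4%), beside the 30.7% of all protein-coding genes given above. None was in the IDR set, where 5.57% of all protein-coding genes were. In replicate 1, 4 had a summit, beside 27.97% of all protein-coding genes, and in replicate 2, 14 did, beside 31.9%; the 4 of replicate 1 were among the 14. The highest pooled signal was 39.1 at tofu-7, a gene named for its part in 21U-RNA production. The Piwi gene prg-1 had 19.995, tofu-5, needed for transcription of the precursors, 20.4, tofu-1, a subunit of the complex that cuts the precursors, 24.5, henn-1, the methyltransferase of piRNA 3′ ends, 18.4, erh-2, a subunit of the precursor-processing complex, 18.03, attf-6, an AT-hook protein, 17.3 and hrde-1, the nuclear Argonaute downstream of piRNAs, 16.2. The precursor transcription factors prde-1, snpc-4 and tofu-4 had no pooled summit there. Of the 2 listed genes inside the domains, prg-2, a Piwi gene that RefSeq lists as a pseudogene, had none in any list, and slfl-4, a Schlafen-like protein of precursor cutting, had one in replicate 2 alone, with a signal of 7.52.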

How the data were processed

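AMA-1 ChIP-seq peak lists of 2 biological replicates were used, which the labels call separate. Per the file notes, each replicate's list was made from its alignments and a control, the pooled list from both libraries' alignments, and the IDR set from these 3 lists. The software used upstream and the IDR threshold: not given in the sources used here. The deposited score per peak is the authors' signal value, used within a list only; the deposited −log10 q-value reached a shared maximum and ranked nothing. Read depth is unknown. Intervals are exact 95% binomial (Clopper-Pearson) and cover counting of peaks or genes only.

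Summits were assigned by position on ce11. Genes came from Ensembl release 115 (WBcel235, the same assembly), and a gene start is its outermost annotated 5′ end. A pooled summit was matched to a replicate summit within 100 bp. Summits took the first class that applied of start, end (500 bp, protein-coding), body and outside. The scripts (Python 3.11.15, numpy 2.4.6, pandas 2.3.3, scipy 1.17.1) were tested on simulated positions. Mean and SD are over n = 2 replicates, except for GC content, where they are over the windows at summits. There is 1 group, so no groups were compared; regions were compared within each replicate.

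Named were the 20 strongest members and the 5 strongest of each domain, the 5 IDR members matched in both replicates whose rank percentiles differed most, the 10 strongest members within 100 bp of a piRNA start and over 1000 bp from protein-coding starts and ends, and a list of 23 piRNA pathway genes, of which 1 name found no match. Members, lists and named genes were chosen with earlier results of these data known. Alternatives were the domain limits, each replicate alone, the IDR set, other windows and match distances, merged peaks and the ce10 lists; those without fkh-7 were added after the values had been seen.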

Additional observations from a re-analysis of the deposited data

How the results depend on the processing

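Apart from single replicates, 27 alternatives to 7 results were run. A value was taken to have moved when it differed by over 1 SD between the replicates, or, with no replicate values, left its counting interval; 15 did not move by that measure and 12 did. The replicate SD of the share of summits near a piRNA start is wide, since it was 30.2% in one and 41.7% in the other, so 43.2% with the limits drawn inward and 28.8% in the IDR set are among the 15. Merging overlapping peaks gave 171.5 peaks per Mb in the domains. The share matched in both replicates was 78.8% in the IDR set, 21.6% within 50 bp, 46.1% within 200 bp and 56.3% for any overlap. The share of summits near a piRNA start was 24.7% within 250 bp, where 50.1% of bases lay. That near a protein-coding start was 48.1% in the IDR set, 15.7% within 250 bp and 34.3% within 1000 bp. The share of piRNA genes with a summit was 0.479% in the IDR set, 3.89% within 250 bp and 12.2% within 1000 bp. Such shares depend on the window by construction. Each replicate alone gave 186.8 to 211.3 peaks per Mb, 30.2 to 41.7% of summits near a piRNA start, 20.5 to 24.4% near a protein-coding start and 7.11 to 8.65% of piRNA genes with a summit. Without fkh-7 the domains had 192.7 peaks per Mb and 34.1% of summits near a piRNA start. No paired analysis of groups was possible because there is 1 group; differences within each replicate are given with the densities. The pooled list and each replicate list hold 30000 peaks, how that number came about was not found in the labels, and depth is unknown, so a gene without a listed summit is not shown to lack the polymerase.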
